A study of Mus musculus with 4 samples.

Results

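The genes described here are 55 genes of the dividing cell, 27 that act in S phase and 28 that act in G2 and mitosis, chosen by gene symbol. Of these, 53 were found in the expression table of 48395 genes. All 25 S-phase and all 28 G2 and M genes found had a mean of at least 1 FPKM (sequenced fragments scaled by gene length and library total) over the libraries, the level set for testing. Cdt1 and Gins2 were not analysed here. RNA was sequenced from 2 libraries of cells that overexpressed Zeb1 and 2 libraries of control cells. The Zeb1 group received CAG-Zeb1-IRES-ZsGreen and the control group CAG-IRES-ZsGreen, each by electroporation into the cortex of ICR embryos at E14.5. ZsGreen is a green fluorescent protein, and the CAG promoter is active in nearly all cell types rather than in progenitors alone. After 48 hours, at E16.5, the cortex was dissociated with papain and the fluorescent cells were sorted. The labels do not say how many embryos or litters went into a library, so the p-values reflect library-to-library spread, which may be technical.

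ZEB1 is a zinc-finger repressor that binds E-box sequences, and in the developing cortex it is found mainly in progenitor cells. Cortical progenitors divide at or near the ventricular surface, replicate their DNA away from it, and stop dividing as they become neurons. In S phase the licensed MCM helicase opens origins and the replication machinery copies the DNA. In G2 and mitosis, CDK1 with its cyclins, the Polo and Aurora kinases and the kinetochore separate the chromosomes. In bulk RNA the levels of these genes follow the share of cycling cells and the amount of transcript per cycling cell, and these cannot be told apart here.

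The promoters of the S-phase and of the G2 and M genes differed in the letters they hold. The promoters of G2 and M genes typically hold a cell cycle homology region (CHR), read by the MuvB complex, near CCAAT boxes bound by NF-Y. The promoters of S-phase genes typically hold E2F sites. RefSeq promoter windows of GRCm38.p6, from 250 bases before to 50 bases after each start, were at hand for 47 of the 53 genes, in 51 windows. Ect2, Fen1, Mcm7 and Uhrf1 each had more than 1 window. Those of Ect2 overlap, so its CHR, CCAAT and E-box letters are counted in both. The CHR letters TTTGAA or TTCGAA, on either strand, stood in 21 of 26 G2 and M windows, in 4 of 25 S-phase windows and in 19.2% of all 32841 windows. The E2F letters TTTCCCGC, TTTCGCGC, TTTGCCGC or TTTGGCGC, on either strand, stood in 1 of 26 G2 and M windows, in 9 of 25 S-phase windows and in 2.27% of all windows. CCAAT, on either strand, stood in 20 of 26 G2 and M windows, in 16 of 25 S-phase windows and in 37.4% of all. The ZEB-type E-box CACCTG, on either strand, stood in 5 of 26 G2 and M windows, in 3 of 25 S-phase windows and in 20.2% of all. E2F matches on opposite strands can share letters, as they do at Mcm5 and Mcm6. A match of letters is a description and shows no binding.

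The stretches just before the start of 7 genes are shown because they hold CHR, CCAAT or E2F letters. Cdk1 is the 1 G2 and M gene whose window held E2F letters. CHR, CCAAT and E2F letters are in capitals, and each runs 5′ to 3′ along the gene's strand in GRCm38.p6. Cdk1, Cdc20, Ube2c and Mki67 are G2 and M genes. Mcm6, Mcm5 and Hells are S-phase genes.
Cdk1, chr10:69352913-69353052, minus strand: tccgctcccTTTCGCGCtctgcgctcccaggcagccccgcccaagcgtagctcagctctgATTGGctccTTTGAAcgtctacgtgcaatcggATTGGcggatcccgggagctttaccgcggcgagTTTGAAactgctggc
Cdc20, chr4:118437344-118437443, minus strand: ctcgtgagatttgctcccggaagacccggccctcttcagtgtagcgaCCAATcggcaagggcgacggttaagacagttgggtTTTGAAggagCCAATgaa
Ube2c, chr2:164769829-164769928, plus strand: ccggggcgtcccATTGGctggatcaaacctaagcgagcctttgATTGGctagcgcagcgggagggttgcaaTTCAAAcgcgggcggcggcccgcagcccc
Mki67, chr7:135716380-135716579, minus strand: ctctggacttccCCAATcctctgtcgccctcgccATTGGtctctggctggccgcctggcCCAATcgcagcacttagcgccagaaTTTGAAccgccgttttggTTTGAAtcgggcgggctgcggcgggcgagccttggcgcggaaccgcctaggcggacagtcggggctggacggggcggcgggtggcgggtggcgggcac
Mcm6, chr1:128359706-128359825, minus strand: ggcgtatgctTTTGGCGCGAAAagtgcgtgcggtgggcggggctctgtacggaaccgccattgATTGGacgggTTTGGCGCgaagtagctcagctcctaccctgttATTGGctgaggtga
Mcm5, chr8:75109349-75109508, plus strand: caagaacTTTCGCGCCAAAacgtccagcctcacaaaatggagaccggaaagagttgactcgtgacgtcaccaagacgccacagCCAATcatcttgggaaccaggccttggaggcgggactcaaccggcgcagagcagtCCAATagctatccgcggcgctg
Hells, chr19:38930890-38930989, plus strand: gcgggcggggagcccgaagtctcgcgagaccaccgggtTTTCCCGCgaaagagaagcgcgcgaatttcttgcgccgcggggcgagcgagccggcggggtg

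Zeb1 itself checked the labels. It had 5622 and 6227 FPKM in the Zeb1 libraries, against 35.2 and 18.6 FPKM in the control libraries. The log2 fold change of FPKM + 1 was 7.80 with a standard error of 0.35 (limma adjusted p = 0.0192). Over all tested genes, pairs within a group fell inside the range of pairs between groups. Spearman's rho, taken across genes as a description, was 0.902 for the Zeb1 pair and 0.893 for the control pair, and it ran from 0.881 to 0.905 for pairs of different groups.

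No S-phase or G2 and M gene passed the test between Zeb1 and control cells. With limma over 14330 genes and a threshold of 0.05 on the Benjamini-Hochberg adjusted p, 0 of 53 were called, against 0.195% of all genes tested, 0.0837% higher and 0.112% lower in Zeb1 cells. All 53 are protein-coding, and of the 11916 protein-coding genes tested 3 were called higher and 0 lower. With so few calls, 0 of 53 does not set these genes apart. At an unadjusted p under 0.05 the count was 0 of 53, against 6.92% of all genes. The lowest adjusted p among the 53 was 0.729, for Uhrf1. The median log2 fold change was 0.08 over the 28 G2 and M genes, with 19 above 0, and -0.06 over the 25 S-phase genes, with 9 above 0. Over all genes tested the median was 0.000325, with 50.1% above 0. Both list medians were smaller than the pooled SD between replicates of the list's mean level, 0.201 for G2 and M and 0.234 for S phase. Without Zeb1 replicate 1 the medians were -0.15 and -0.24, and without Zeb1 replicate 2 they were 0.29 and 0.14. Without control replicate 2 the S-phase median was 0.043. The signs of both medians thus turned on single libraries.

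The intervals give a rough range for each gene taken singly. For 42 of the 53 genes, 24 of G2 and M and 18 of S phase, the 95% interval of the log2 fold change lay within -1 and 1. These limits are a fold of 2 either way on the FPKM + 1 scale. The intervals were not adjusted for the number of genes, and the same count over all genes was not taken. They rest on 2 libraries a group, whose spread may be technical, so they may be too narrow. The other 11 genes had wider intervals, widest for Ccne2, at -1.66 to 1.66. All 53 intervals held 0.

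**Figure D1:**
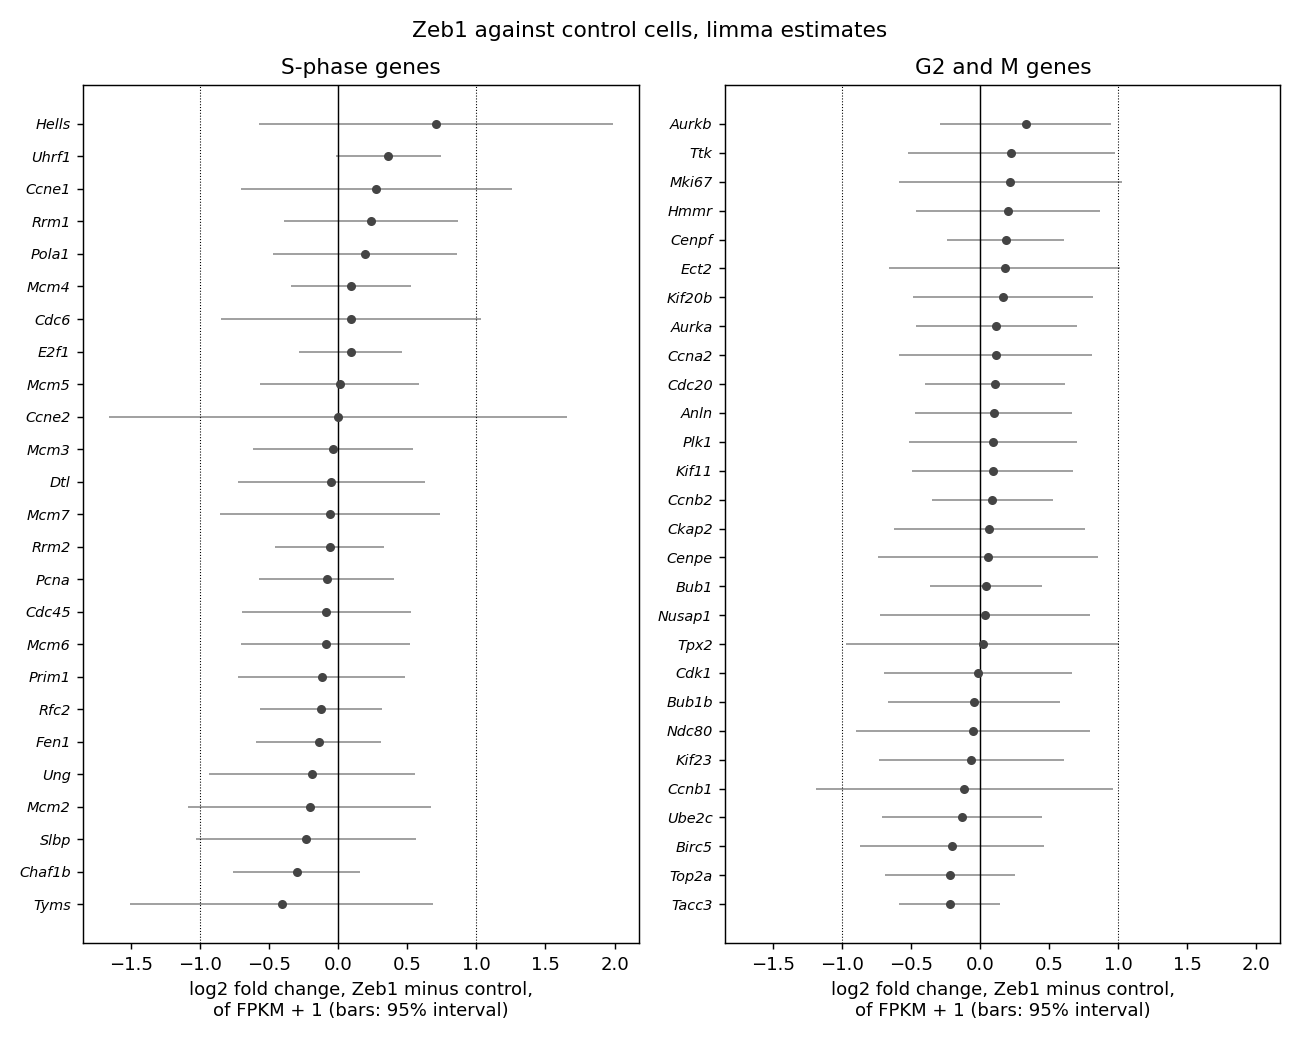
Log2 fold change of FPKM + 1, Zeb1 minus control, for the 25 S-phase genes and the 28 G2 and M genes, with 95% limma intervals as bars; dotted lines mark -1 and 1. Every interval crosses 0, and the estimates run from -0.41 for Tyms to 0.71 for Hells.

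The libraries of the groups overlapped for nearly all genes. Both Zeb1 libraries lay above both controls for 3 genes, against 18.2% of all genes tested, and below both for 2, against 19.5%. In all, the groups did not overlap for 5 of 53, against 37.6%. Uhrf1, the adaptor that brings maintenance DNA methylation to newly copied DNA and lies at chr17:56303321-56323486 in GRCm38, had 31.5 and 29.8 FPKM in Zeb1 cells, against 24.8 and 22.5 FPKM in control cells. Its log2 fold change was 0.36 (standard error 0.14), with an interval of -0.02 to 0.74. E2f1, a transcription factor that drives S-phase genes, had 15.0 and 13.8 FPKM in Zeb1 cells, against 13.4 and 13.5 FPKM in control cells. Cenpf, a large protein of the outer kinetochore, had 25.6 and 30.5 FPKM in Zeb1 cells, against 23.9 and 24.9 FPKM in control cells. On the lower side, Chaf1b, a subunit of the chromatin assembly factor that follows the replication fork, had 15.9 and 13.3 FPKM in Zeb1 cells, against 19.4 and 17.0 FPKM in control cells. Tacc3, which stabilises spindle microtubules, had 27.2 and 25.1 FPKM in Zeb1 cells, against 31.1 and 30.1 FPKM in control cells. The adjusted p of these 5 genes lay between 0.729 and 0.892.

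The larger pattern lay between the Zeb1 libraries. Zeb1 replicate 1 was above Zeb1 replicate 2 for 51 of the 53 genes, all 25 of S phase and 26 of the 28 of G2 and M, against 62.9% of all genes tested. The median difference in log2(FPKM + 1) was 0.40 over S-phase genes and 0.47 over G2 and M genes, against 0.11 over all genes tested. Without a log or a pseudocount, the median ratio of Zeb1 replicate 1 to replicate 2 was 1.41 over the 53 genes and 1.09 over all genes tested. For 36 of the 53 genes Zeb1 replicate 1 was the highest of the 4 libraries (34.2% of all genes), and for 33 Zeb1 replicate 2 was the lowest (34.3%). Both held for 19 genes (12.5%). The control libraries showed no such shift, with a median difference of -0.07 over S-phase genes and -0.04 over G2 and M genes, and control replicate 1 was the higher for 21 of the 53. For 48 of the 53 genes the Zeb1 libraries differed from each other by more than the group means did, against 56.1% of all genes tested. A difference of 2 single libraries is expected to exceed one of 2 means. Scaling that set the median of all genes to about 0 left the difference at 0.291 to 0.301 over S-phase genes and 0.345 to 0.346 over G2 and M genes. These are descriptions of single libraries, and there is no test of one library against another.

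**Figure D2:**
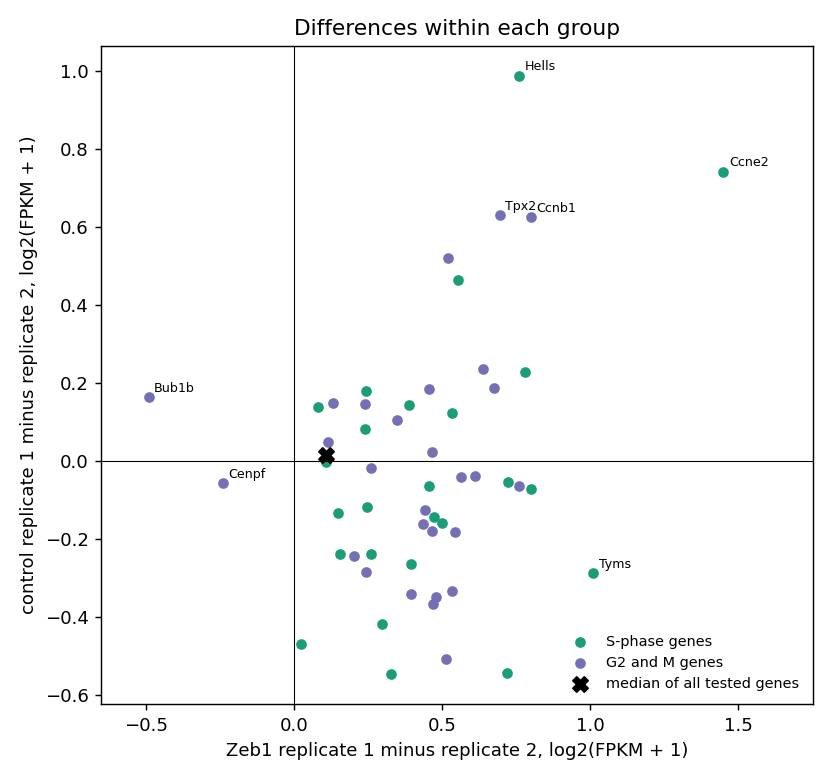
Each point is a gene, placed by the difference of replicate 1 minus replicate 2 in log2(FPKM + 1), within the Zeb1 group on the x axis and within the control group on the y axis. Of the 53 points, 51 lie right of 0, while on the y axis 21 lie above 0; the cross marks the medians of all genes tested, 0.11 and 0.02.

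Summed levels showed the same order in both phases. The 25 S-phase genes summed to 735.6 and 535.2 FPKM in the Zeb1 libraries, against 635.7 and 647.4 FPKM in the control libraries. The 28 G2 and M genes summed to 711.9 and 536.7 FPKM in Zeb1 cells, against 601.8 and 621.2 FPKM in control cells. In each phase the controls lay between the Zeb1 libraries. The ratio of the G2 and M sum to the S-phase sum was 0.968 and 1.0 in Zeb1 cells, against 0.947 and 0.959 in control cells.

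All 6 genes of the MCM helicase ring were higher in Zeb1 replicate 1 than in Zeb1 replicate 2. Mcm2, a subunit of the ring, had 66.4 and 38.2 FPKM in Zeb1 cells, against 63.3 and 53.8 FPKM in control cells. Mcm5, next to it in the ring, had 20.5 and 14.7 FPKM in Zeb1 cells, against 16.8 and 17.6 FPKM in control cells. In both, the controls lay within the span of the Zeb1 libraries. Mcm3 was the most even of the 6 between the Zeb1 libraries, with 24.9 and 24.5 FPKM, against 21.4 and 30.0 FPKM in control cells. Mcm4, Mcm6 and Mcm7 had log2 fold changes of 0.09, -0.09 and -0.06. Cdc6, which loads the helicase at origins, had 4.77 and 2.31 FPKM in Zeb1 cells, against 2.995 and 3.20 FPKM in control cells. Cdc45, which activates the loaded helicase, had a log2 fold change of -0.08.

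Genes of DNA synthesis and of nucleotide supply were likewise higher in Zeb1 replicate 1 than in Zeb1 replicate 2. Tyms, the thymidylate-making enzyme gene at chr5:30058202-30073617 in GRCm38, had 34.6 and 16.7 FPKM in Zeb1 cells, against 29.1 and 35.7 FPKM in control cells. Its log2 fold change of -0.41, the lowest of the 53, came with a standard error of 0.39 (limma adjusted p = 0.805). Without Zeb1 replicate 2 the value was 0.097, and without Zeb1 replicate 1 it was -0.91. Rrm1, the large subunit of ribonucleotide reductase, had 84.1 and 59.2 FPKM in Zeb1 cells, against 56.5 and 63.1 FPKM in control cells. Its partner Rrm2 was among the steadier genes, with 32.9 and 29.6 FPKM in Zeb1 cells, against 31.2 and 34.2 FPKM in control cells. The sliding clamp Pcna, the clamp loader subunit Rfc2, the flap nuclease Fen1 and the primase subunit Prim1 had log2 fold changes of -0.08, -0.12, -0.14 and -0.12. Pola1, the catalytic subunit of polymerase alpha, had 0.19, and Ung, which removes uracil from DNA, had -0.19.

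A chromatin gene and a cyclin had the widest intervals of the 53. Hells, a chromatin remodeller that aids DNA methylation and lies at chr19:38930915-38971051 in GRCm38, had 34.6 and 20.04 FPKM in Zeb1 cells, against 22.6 and 10.9 FPKM in control cells. Its log2 fold change of 0.71, the highest of the 53, came with a standard error of 0.46 and an interval of -0.57 to 1.99. The groups overlapped, and replicate 1 was the higher in each. Ccne2, one of the cyclins E that start S phase with CDK2, had 12.6 and 3.96 FPKM in Zeb1 cells, against 9.61 and 5.34 FPKM in control cells. Its log2 fold change was near 0, but it was -0.72 without Zeb1 replicate 1 and 0.72 without Zeb1 replicate 2, the widest swing of the 53. Ccne1, the other cyclin E, had 10.04 and 5.70 FPKM in Zeb1 cells, against 4.88 and 7.57 FPKM in control cells, so the controls stood in the opposite order. Slbp, which binds histone mRNA, had 42.2 and 25.2 FPKM in Zeb1 cells, against 37.7 and 39.2 FPKM in control cells. Dtl, a substrate receptor of the ubiquitin ligase that degrades the licensing factor CDT1, had a log2 fold change of -0.05.

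**Figure D3:**
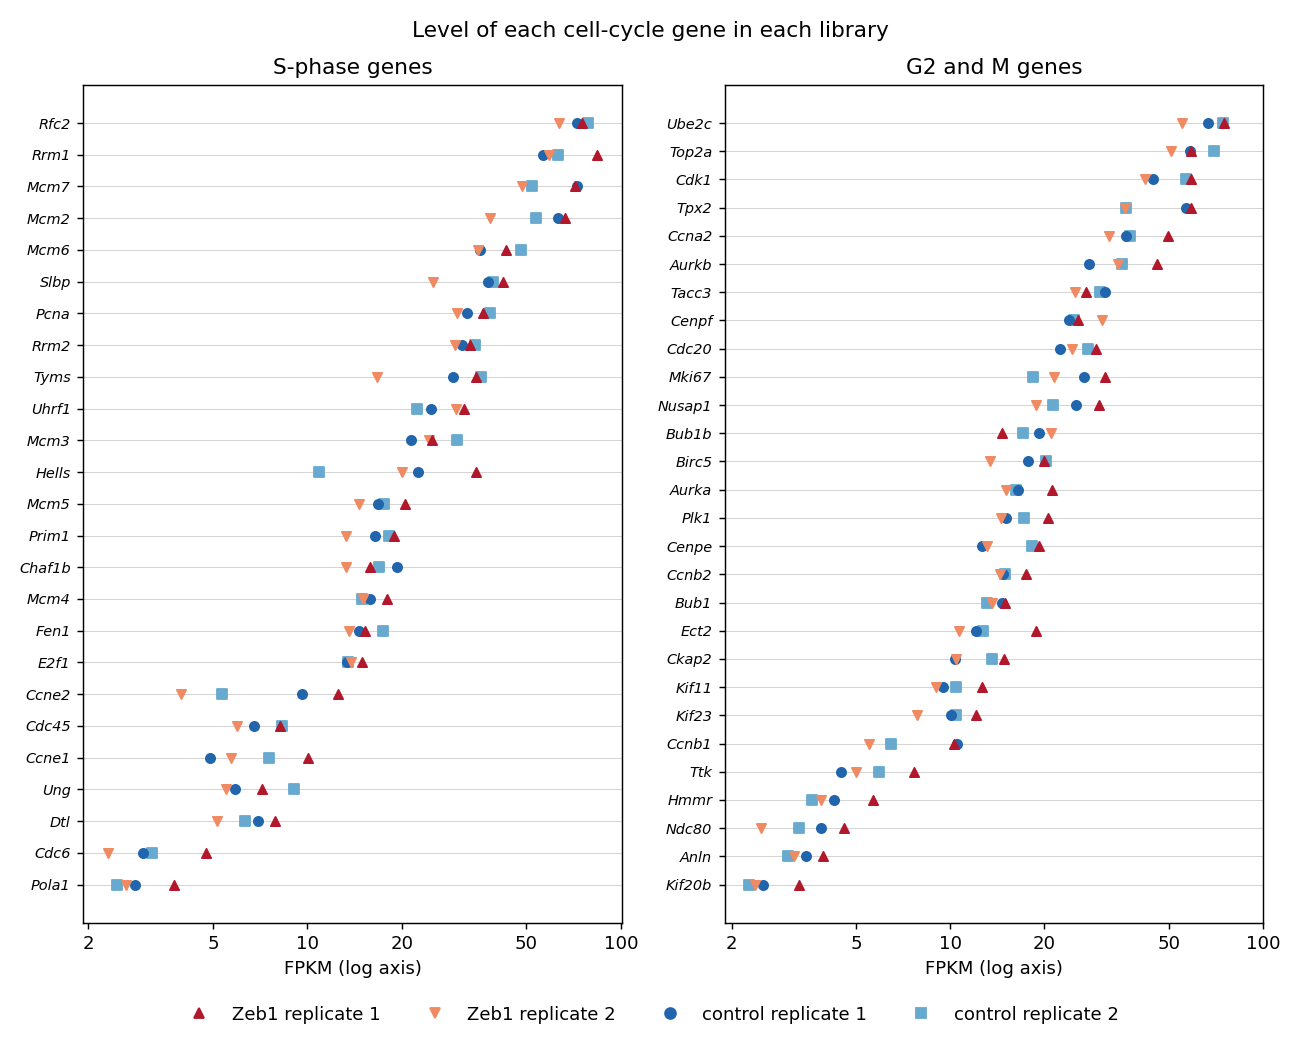
FPKM of each gene on a log axis in the 4 libraries, S-phase genes on the left and G2 and M genes on the right, ordered by mean level. Zeb1 replicate 1 is the highest library for 36 of the 53 genes and Zeb1 replicate 2 the lowest for 33.

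Mean levels of the 53 genes ran from 2.61 FPKM for Kif20b to 72.4 FPKM for Rfc2, with a median of 17.2 FPKM. Among the G2 and M genes, CDK1 and its cyclins showed no shift between groups beyond their spread. Cdk1 had 59.0 and 42.0 FPKM in Zeb1 cells, against 44.4 and 56.9 FPKM in control cells, a log2 fold change of -0.01 with an interval of -0.70 to 0.67. Ccna2, the cyclin A of S phase and G2, had 49.8 and 32.3 FPKM in Zeb1 cells, against 36.5 and 37.5 FPKM in control cells. Ccnb1, a mitotic cyclin, had 10.3 and 5.49 FPKM in Zeb1 cells, against 10.5 and 6.46 FPKM in control cells. Ccnb2, the other mitotic cyclin, had 17.5 and 14.4 FPKM in Zeb1 cells, against 14.8 and 15.0 FPKM in control cells. The Zeb1 libraries spanned both controls for each of these except Ccnb1, where the replicates of each group differed in the same direction.

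The mitotic kinases and the checkpoint genes had small estimates. Aurkb, the kinase of the chromosomal passenger complex, had 45.6 and 34.5 FPKM in Zeb1 cells, against 27.8 and 35.4 FPKM in control cells. Its log2 fold change of 0.33 was the highest of the G2 and M genes (standard error 0.22, limma adjusted p = 0.764). Birc5, the survivin subunit of the same complex, had -0.20. Plk1 and Aurka, kinases of mitotic entry and the spindle poles, had 0.09 and 0.12. Bub1b, which encodes the checkpoint protein BUBR1, went against the general order, with 14.6 and 20.9 FPKM in Zeb1 cells, against 19.2 and 17.0 FPKM in control cells. With Cenpf it was one of the 2 genes higher in Zeb1 replicate 2 than in Zeb1 replicate 1. The checkpoint kinases Bub1 and Ttk had log2 fold changes of 0.04 and 0.23, the kinetochore gene Ndc80 had -0.05, and the kinetochore motor gene Cenpe had 0.06.

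Genes of the spindle, of cytokinesis and of mitotic exit completed the set. Tpx2, which activates Aurora A on the spindle, had 58.9 and 36.0 FPKM in Zeb1 cells, against 56.9 and 36.4 FPKM in control cells. The spindle motor Kif11 and the microtubule binders Nusap1, Hmmr and Ckap2 had log2 fold changes of 0.09, 0.04, 0.21 and 0.07. Ect2, which positions the cleavage furrow, had 18.7 and 10.7 FPKM in Zeb1 cells, against 12.1 and 12.7 FPKM in control cells. The cytokinesis genes Kif23, Kif20b and Anln had -0.06, 0.17 and 0.10. Ube2c and Cdc20, which work with the anaphase-promoting complex, had -0.13 and 0.11. Top2a, the topoisomerase that untangles sister chromatids, had 58.7 and 50.9 FPKM in Zeb1 cells, against 58.5 and 69.4 FPKM in control cells. Mki67, the proliferation marker Ki-67, had 31.3 and 21.5 FPKM in Zeb1 cells, against 26.8 and 18.4 FPKM in control cells.

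Several genes differed by replicate number in both groups. Ccnb1, Tpx2, Mki67, Mcm7, Hells and Ccne2 were higher in replicate 1 than in replicate 2 by over 0.4 in log2(FPKM + 1) within each group. These were 6 of the 53, singled out after their values were seen, against 7.50% of all genes tested. Replicate 1 was above replicate 2 in both groups, by any amount, for 20 of the 53 (35.9% of all genes). Mcm7 had 71.6 and 48.5 FPKM in Zeb1 replicates 1 and 2, against 72.3 and 52.2 FPKM in control replicates 1 and 2. Outside the 53, the CDK inhibitor Cdkn1a, the p21 gene, had 20.9 and 5.95 FPKM in Zeb1 cells, against 11.98 and 3.46 FPKM in control cells.

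Other genes of the cell-cycle machinery, in 10 lists of 166 genes that exclude the 53, gave 0 calls among 163 tested genes. At an unadjusted limma p under 0.05, 1 was higher and 4 were lower, against 3.23% and 3.68% of all genes tested. The lowest adjusted p was 0.619. Tfdp2, a dimerisation partner of E2F factors, had 28.0 and 23.8 FPKM in Zeb1 cells, against 18.8 and 16.9 FPKM in control cells, and a log2 fold change of 0.51. The 4 with a negative value were Rpa3, a subunit of the single-strand binding protein, with -0.64, Lin37 of the MuvB complex with -0.94, the CDK-binding protein gene Cks1b with -0.48, and Anapc4 of the anaphase-promoting complex with -0.44. Of the other genes with the smallest p in each list, none passed the test. In replication, Cdc7, the kinase that fires origins, had 0.43, with Gins1 at 0.26, Orc3 at 0.16, Rfc1 at -0.32 and Dut at -0.46. In mitosis, the values were 0.31 for Hjurp, 0.34 for Aspm, 0.20 for Kntc1, 0.30 for Sgo1, -0.49 for Cenpk, -0.18 for Cenpc1, -0.33 for Cdc25b, 0.24 for Cks2 and -0.14 for Bora. The cohesin subunit Stag2 had -0.49, the condensin subunits Ncapg2 and Ncapd2 had 0.26 and -0.17, Lin9 of the MuvB complex had 0.27, and Anapc5 and Cdc23 had -0.26 and 0.19. The G1 cyclins Ccnd1, Ccnd2 and Ccnd3 had 0.51, 0.12 and 0.24, and their kinases Cdk4 and Cdk6 had -0.27 and 0.18. Among the CDK inhibitors, Cdkn1a had 0.70 with an interval of -1.57 to 2.97, Cdkn1b -0.11, Cdkn1c -0.28, Cdkn2c 0.14 and Cdkn2d 0.11. Cdkn2a and Cdkn2b reached at most 0.144 and 0.210 FPKM, below the level for testing.

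By list, the medians of the log2 fold change ran from -0.14 for the 14 genes of the anaphase-promoting complex to 0.14 for the 8 G1 cyclins and kinases. They were 0.02 for 19 genes of origin licensing and firing, 0.03 for 28 of the replication fork, -0.04 for 26 of the kinetochore and checkpoint, 0.06 for 22 of the spindle and cytokinesis, -0.02 for 9 of mitotic entry, and 0.05 for 19 pocket protein, E2F and MuvB genes. Condensin and cohesin had -0.04 over 13 genes and the CDK inhibitors 0.11 over 5. Zeb1 replicate 1 was above Zeb1 replicate 2 for 136 of the 163 genes, against 62.9% of all genes tested. By list the counts were 25 of 26 kinetochore genes, 17 of 19 pocket protein, E2F and MuvB genes, 8 of 9 genes of mitotic entry, 19 of 22 spindle genes and 24 of 28 replication fork genes. They were 15 of 19 for origin licensing, 11 of 14 for the anaphase-promoting complex, 10 of 13 for condensin and cohesin, 5 of 8 for G1 cyclins and kinases, and 2 of 5 for CDK inhibitors.

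**Figure D4:**
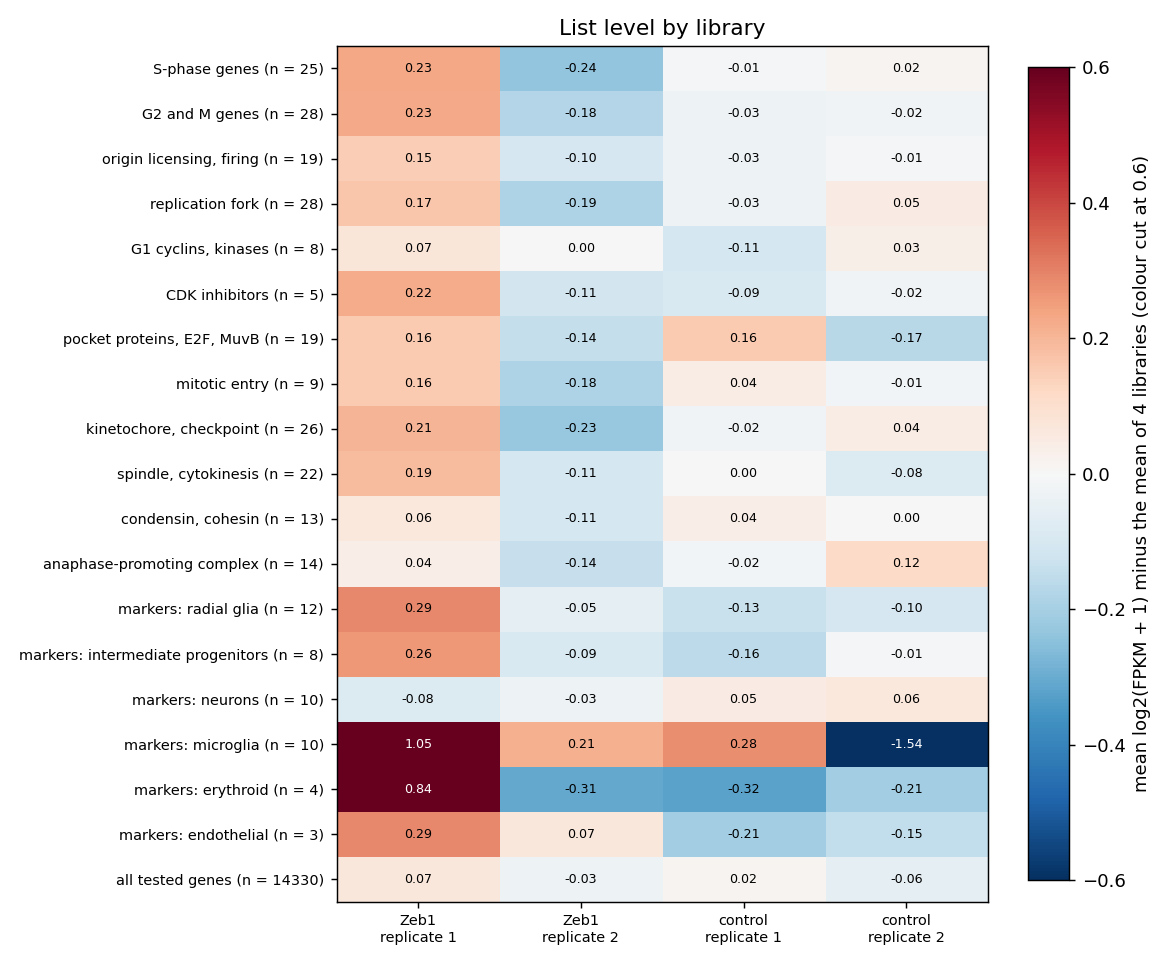
Mean log2(FPKM + 1) of each list in each library, minus the mean of the 4 libraries, with the number of tested genes in parentheses. S-phase and G2 and M genes stand at 0.23 in Zeb1 replicate 1 and at -0.24 and -0.18 in Zeb1 replicate 2; microglial markers span -1.54 to 1.05, beyond the colour limit of 0.6.

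Markers of progenitors and of neurons differed in how they followed the libraries. The 12 radial glia markers, genes of the dividing apical progenitors, summed to 1608 and 1148 FPKM in Zeb1 cells, against 1053 and 980.4 FPKM in control cells, and 9 of 12 were highest in Zeb1 replicate 1. Vim, an intermediate filament gene, carried much of this sum, with 758 and 561 FPKM in Zeb1 cells, against 392 and 384 FPKM in control cells (limma adjusted p = 0.651). Without Vim, left out after the values were seen, the other 11 summed to 850.2 and 587.2 FPKM in Zeb1 cells, against 660.8 and 596.7 FPKM in control cells, and Zeb1 replicate 2 was the lowest. Fabp7 and Glul, next in level, had log2 fold changes of -0.12 and 0.61. Both Zeb1 libraries lay above both controls for 5 of the 12, against 18.2% of all genes tested, and below both for 1, against 19.5%. With so few markers these counts were not tested.

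The 8 intermediate progenitor markers summed to 858.4 and 717.8 FPKM in Zeb1 cells, against 705.4 and 799.3 FPKM in control cells, and all 8 were higher in Zeb1 replicate 1 than in Zeb1 replicate 2. Both Zeb1 libraries lay above both controls for 5 of the 8, against 18.2% of all genes tested, and below both for 2, against 19.5%. For Insm1 and Eomes, which encode transcription factors, the log2 fold change was 0.28 and -0.38, while for the receptor gene Sstr2 it was -0.27. The 10 neuronal markers summed to 2031 and 1810 FPKM in Zeb1 cells, against 2066 and 1954 FPKM in control cells, and only 5 of 10 were higher in Zeb1 replicate 1 than in replicate 2. Both Zeb1 libraries lay above both controls for 1 of the 10 neuronal markers and below both for 4, against the same 18.2% and 19.5%. These counts of few markers were not tested. Neurod6, a transcription factor of cortical excitatory neurons, had 451 and 376 FPKM in Zeb1 cells, against 425 and 495 FPKM in control cells. Map2 and Neurod2 had log2 fold changes of 0.30 and -0.07. Tbr1, a factor of deep-layer neurons, and Syt1, a synaptic vesicle gene, had -0.75 and -0.62 (limma adjusted p = 0.487 and 0.665), and these 2 were picked after their values were seen. Bcl11b, the neuronal marker above both controls in both Zeb1 libraries, went the other way, with 0.49 (limma adjusted p = 0.764). It too was named after its values were seen. No marker of these 3 lists passed the test after adjustment.

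Markers of cells outside the neural lineage were present in all libraries. The 10 microglial markers summed to 816.2 and 441.5 FPKM in Zeb1 cells, against 459.6 and 118.0 FPKM in control cells. All 10 were highest in Zeb1 replicate 1 and lowest in control replicate 2. The complement genes C1qa, C1qb and C1qc, the highest of them, had log2 fold changes of 1.35, 1.43 and 1.46. The 8 erythroid markers summed to 138.8 and 50.7 FPKM in Zeb1 cells, against 64.3 and 55.7 FPKM in control cells, and all 4 that reached the level for testing were highest in Zeb1 replicate 1. The globin genes Hba-a1, Hbb-bs and Hbb-bt had log2 fold changes of 0.33, 0.69 and 0.57. The 7 endothelial markers summed to 10.3 and 7.20 FPKM in Zeb1 cells, against 6.29 and 6.41 FPKM in control cells, with log2 fold changes of 0.32 for Cldn5, 0.64 for Pecam1 and 0.11 for Esam. No marker of these 3 lists was at 0 in all 4 libraries. The part of these cells in the higher cell-cycle levels of Zeb1 replicate 1 was not tested. Between the control libraries the microglial sum was 459.6 and 118.0 FPKM, while the S-phase sum was 635.7 and 647.4 FPKM and the G2 and M sum 601.8 and 621.2 FPKM.

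Exons of 13 of the 53 genes overlap those of another gene in GENCODE, among them Mcm7, Ccna2, Cdc20 and Ube2c. Mcm7 and Top2a were the 2 with an overlap on the same strand, Mcm7 with Mir25 and Mir93 and Top2a with Gm23451. The other overlaps were with genes on the opposite strand, such as Exosc9 at Ccna2 and Elovl1 at Cdc20. No source used here says whether counting used strand, so reads in the shared parts of exons may belong to the neighbour. Ccnb1, Ccnb2, Pcna and Tyms have pseudogenes named after them, which could take or give reads.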

How the data were processed

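The authors deposited FPKM per gene and library for 4 libraries, in 1 table that holds no read counts. The submitters' processing notes list STAR, Cufflinks, DESeq2 and GRCm38; versions and roles, and whether counting used strand, are not given in the sources used here. FPKM are relative to the library total, so abundant genes can shift the others. Absolute depth is unknown. Relative to control replicate 1, the commonest ratio among genes under 200 bp lay between 0.964 and 1.01, at 65 to 73 genes per library. Between 13647 and 13997 genes reached 1 FPKM in a library.

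Here log2(FPKM + 1) was compared with limma 3.58.1 in R 4.3.3, two-sided and with an intensity trend, over the 14330 genes averaging 1 FPKM or more, with Benjamini-Hochberg adjustment and a threshold of 0.05. A fold change is Zeb1 over control on this scale, which understates changes of low genes. With 2 libraries a group, the smallest exact permutation p is 0.333. The longest locus was used where a symbol repeats, and 2 listed genes were matched by identifier. The fit was tested on simulated data. The genes and lists were chosen with earlier results of these data known. The rule for naming took all 53 genes, from each other list up to 3 genes by smallest p, all G1 cyclins and CDK inhibitors, and up to 3 markers a list by level. Cdk4, Tbr1, Syt1 and Bcl11b were named besides, after their values were seen. Python 3.11.15 with matplotlib 3.10.9 made the figures.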

Additional observations from a re-analysis of the deposited data

How the results depend on the processing

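Under all alternatives run, 0 of the 53 genes were called in either direction, with a lowest adjusted p of 0.503 (replicate block) to 0.974 (without control replicate 2). At an unadjusted p under 0.05 the count was 0 to 2 of 53. Pseudocounts of 0.1 and 0.5 were tried, as were filters at 0 and at 5 FPKM, the stricter of which kept 47 of the 53 genes. Libraries were also scaled to 1 total without Zeb1, by median of ratios and by quantiles. Fits dropped the trend, used robust moderation, took protein-coding genes alone, added a replicate block or left out 1 library, whose lone partner was then assumed to vary like the other group. The replicate block left 1 residual degree of freedom and called 0 of the 53. Same-numbered libraries deviated together with a correlation across genes of 0.0833 over all tested genes and 0.368 over protein-coding genes. The labels do not say that the numbers pair the libraries.

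The G2 and M median of the log2 fold change ran from -0.15 without Zeb1 replicate 1 to 0.29 without Zeb1 replicate 2, and the S-phase median from -0.24 to 0.14 over the same libraries. Scalings, pseudocounts and filters moved them between 0.037 and 0.12 and between -0.072 and -0.017. After each of the 3 scalings, which set the median of all genes near 0, Zeb1 replicate 1 was still above replicate 2 by a median of 0.291 to 0.301 over S-phase genes and 0.345 to 0.346 over G2 and M genes. These 3 scalings were applied to that difference after the data were seen. It was then above for 22 to 23 of 25 and for 25 of 28 genes.

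Single signs were not stable. Scalings turned the sign of 5 genes near 0, with Cdk1 at 0.029, Mcm3 at 0.0053 and Ccne2 at 0.033 after rescaling to the same total, Ccne2 at 0.0013 with median-of-ratios scaling, and Cdk1 at 0.011, Cdc6 at -0.012 and Mcm5 at -0.0031 with quantile normalization; the cause was not tested. Leaving out single libraries turned the sign of 43 of the 53 genes. The same count over all genes was not taken, so it does not set these genes apart. The ranges over the 4 omissions were Anln -0.021 to 0.22, Aurka -0.11 to 0.35, Birc5 -0.48 to 0.068, Bub1 -0.033 to 0.12, Bub1b -0.29 to 0.20, Ccna2 -0.19 to 0.42, Ccnb1 -0.51 to 0.29, Ccnb2 -0.042 to 0.22, Ccne1 -0.083 to 0.64, Ccne2 -0.72 to 0.72, Cdc20 -0.036 to 0.25, Cdc45 -0.28 to 0.11, Cdc6 -0.31 to 0.49, Cdk1 -0.25 to 0.23, Cenpe -0.20 to 0.32, Ckap2 -0.17 to 0.30, Dtl -0.32 to 0.22, Ect2 -0.20 to 0.56, Hmmr -0.021 to 0.43, Kif11 -0.13 to 0.31, Kif20b -0.0084 to 0.34, Kif23 -0.35 to 0.22. For the remaining genes they were Mcm2 -0.60 to 0.18, Mcm3 -0.27 to 0.20, Mcm4 -0.026 to 0.21, Mcm5 -0.22 to 0.24, Mcm6 -0.30 to 0.12, Mcm7 -0.34 to 0.22, Mki67 -0.042 to 0.48, Ndc80 -0.39 to 0.29, Nusap1 -0.28 to 0.36, Pcna -0.21 to 0.046, Plk1 -0.14 to 0.33, Pola1 -0.00055 to 0.39, Prim1 -0.36 to 0.12, Rrm1 -0.012 to 0.49, Rrm2 -0.14 to 0.012, Slbp -0.59 to 0.13, Tpx2 -0.33 to 0.37, Ttk -0.039 to 0.49, Tyms -0.91 to 0.10, Ube2c -0.35 to 0.089, Ung -0.46 to 0.084. The depth limit is that FPKM carry no counts, so no counting interval was computed for any gene.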
